A study of Mus musculus with 24 samples.

Results

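MiR-7 and miR-375 are miRNAs known from neuroendocrine cells, and 3 of their mature forms, mmu-miR-7a-5p, mmu-miR-7b-5p and mmu-miR-375-3p, were followed over 24 arrays of mouse ocular and brain tissue. These 3 were chosen by name from the 1881 mouse miRNAs on a 1-colour Agilent array. The arrays covered 8 tissues, namely cornea, iris, lens, retina, choroid (dissected with the retinal pigment epithelium), sclera, SCN and LGN. In mouse neuroanatomy the letters SCN usually stand for the suprachiasmatic nucleus of the hypothalamus and LGN for the lateral geniculate nucleus of the thalamus, both of which receive fibres from the retina, and the labels give the letters only. Every tissue was measured once in each of 3 lens groups of C57BL/6J mice. The normal group wore no lens, the 0 D group wore a lens without power, and the -30 D group wore the negative lens used to induce myopia. No transgene was described for any group, and no drug treatment apart from the anaesthesia used for eye measurements and for euthanasia. In the study the lens was fixed on the right eye of male mice at 3 weeks of age for 3 weeks, and each array of the normal and -30 D ocular tissues held RNA pooled from 3 mice. The pooling and the dissection of the 0 D, SCN and LGN samples were not described there.

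MiRNAs are short RNAs that lower the output of messenger RNAs carrying a match to their seed, the bases 2 to 8 from the 5′ end. MiR-7 is abundant in the hypothalamus, the pituitary and the pancreatic islets, and in islets it restrains insulin secretion. In brain it binds the circular RNA Cdr1as, which carries many miR-7 sites. MiR-375 is abundant in islet and pituitary cells and limits insulin secretion.

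The mature sequences show why the miR-7 forms have to be read together. They are printed 5′ to 3′ with the seed in capitals, as RefSeq gives them for GRCm38.p6. The array files name no genome build.
miR-7a-5p: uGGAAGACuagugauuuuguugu
miR-7b-5p: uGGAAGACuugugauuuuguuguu
Both forms carry the seed GGAAGAC, and no other of the 1679 mature miRNAs in the sequence table did. Over the 23 bases they share, they differ by 1 substitution, A10U, counted from the 5′ end of miR-7a-5p, and miR-7b-5p has 1 base more at its 3′ end. MiR-7a-5p is cut from 2 hairpins. Mir7-1 lies at chr13:58392779-58392886 on the minus strand, within the span of Hnrnpk, an RNA-binding protein gene. Mir7-2 lies at chr7:78888277-78888373 on the plus strand and overlaps no other annotated gene. Mir7b lies at chr17:56242988-56243098 on the plus strand, 183 bases from the long non-coding RNA gene A230051N06Rik.

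The 5p arm of the 2 miR-7a hairpins is identical, so the array cannot tell from it which hairpin was expressed. The opposite arms differ, and they are shown with the 3 differing bases in capitals, namely A7G, A10C and U21C from miR-7a-1-3p to miR-7a-2-3p.
miR-7a-1-3p: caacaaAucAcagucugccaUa
miR-7a-2-3p: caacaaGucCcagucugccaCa
MiR-375-3p was not among the mature sequences at hand, and its hairpin is printed instead with the 5p arm in capitals. Mir375 lies at chr1:74900658-74900721 on the minus strand, between Cryba2, a beta-crystallin gene 1816 bases away, and Cfap65, 1350 bases away.
Mir375: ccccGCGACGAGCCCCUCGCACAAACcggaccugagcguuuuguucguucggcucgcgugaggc

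Each miRNA was read by 2 probes of 15 spots each, and its signal was the sum of the probes that exceeded 3 times their own error. A miRNA with no such probe was not detected. Signals were then scaled to a common 75th percentile, taken on each array over the 79 miRNAs that all 24 arrays detected. A scaled signal is in array units with no absolute meaning. Between 129 and 249 miRNAs were detected per array. The scaling factors ran from -1.01 to 1.65 on the log2 scale and were highest in the lens, so lens values depend on the scaling more than others do. Each slide carried 1 lens group, and the slide and the lens group cannot be told apart. In the tests between tissues the 3 lens groups served as the 3 arrays of a tissue, so p-values measure a spread between single arrays. That spread was pooled per miRNA over all tissues of the fit, including those where values stood in for undetected signals. It is therefore not the spread of the compared tissues alone.

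Marker miRNAs were checked against the labels. Of 7 neuronal miRNAs, all 7 were detected on each SCN and LGN array, with summed scaled signals of 3761 to 4088 in SCN and 3895 to 4572 in LGN. On each retina array 6 of them were detected, with higher sums of 11088 to 12369, and choroid gave 752 to 1202. High sums of this list are thus not particular to the brain samples. Oligodendrocyte miRNAs summed to 241 to 372 in SCN and to 678 to 992 in LGN. None of 5 epithelial miRNAs, which the pituitary also expresses, was detected on any SCN or LGN array. The photoreceptor miRNAs of the miR-183 cluster summed to 14498 to 16170 in retina, to 813 to 1436 in choroid and to at most 8.21 in SCN. The 2 miRNAs linked to light and the clock in the SCN, miR-132-3p and miR-219a-5p, together were not higher in SCN, with sums of 362 to 368 against 394 to 417 in LGN and 83.2 to 106.3 in retina. MiR-132-3p alone gave 280 to 320 in SCN and 183 to 245 in LGN, and miR-219a-5p, which is also an oligodendrocyte miRNA, gave 47.9 to 82.0 in SCN and 171 to 234 in LGN.

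MiR-7a-5p was highest in SCN on each slide. Its scaled signal in SCN was 571 in the normal group, 608 in the 0 D group and 756 in the -30 D group. In retina it was 58.2, 67.1 and 49.7 in the same order. In LGN it was 105.9, 15.2 and 18.8. The SCN arrays thus stood above every other array, whereas the LGN values spread over a 6.99-fold range that enclosed the retina. In choroid a signal of 5.86 was found on the normal array alone, and cornea, iris, lens and sclera gave none on any array. The probe that gave the choroid signal read 4.76 and 3.72 on the 0 D and -30 D choroid arrays, below 3 errors.

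MiR-7b-5p had the same order. In SCN its scaled signal was 169, 164 and 185 in the normal, 0 D and -30 D groups. In retina it was 15.2, 18.4 and 13.8. In LGN it was 31.0, 3.96 and 4.45. SCN was again apart from all others with no overlap, retina and LGN overlapped, and all 15 arrays of cornea, iris, lens, choroid and sclera lacked a detected signal.

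**Figure D1:**
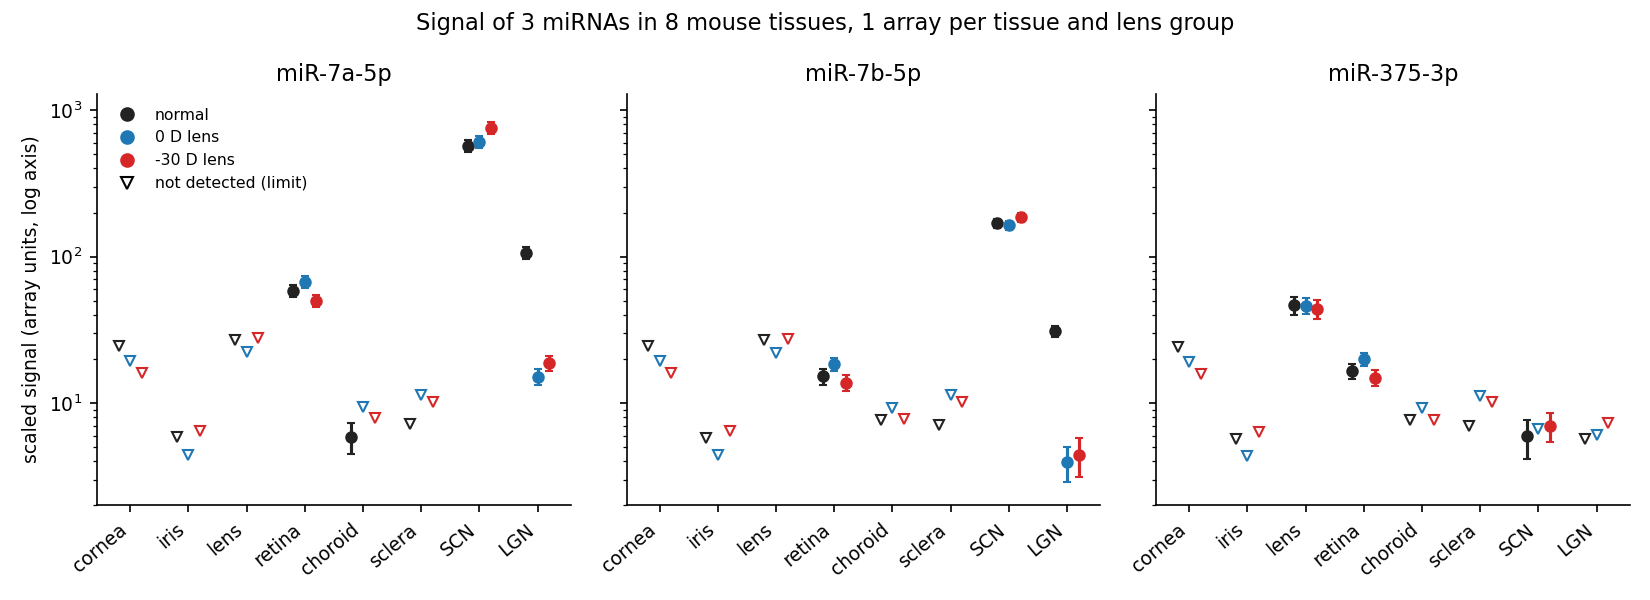
Scaled signal (array units, log axis) of miR-7a-5p, miR-7b-5p and miR-375-3p by tissue, 1 point per array, coloured by lens group. Bars give the array's own error. Open triangles mark arrays without a detected signal and lie at the limit given by both probes at 3 errors, which can exceed a signal detected by 1 probe. The SCN points of both miR-7 forms stand above all others, and miR-375-3p is highest in lens.

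The difference between SCN and LGN was tested with limma over the 352 miRNAs detected on at least 3 arrays. MiR-7a-5p was higher in SCN by 4.36 ± 0.53 on the log2 scale (SE, 3 arrays per tissue, limma adjusted p = 9.1e-06). This SE came from the spread pooled over all tissues of the fit, not from the SCN and LGN arrays alone. The means were 645 ± 97.6 in SCN and 46.6 ± 51.4 in LGN (SD, n = 3). MiR-7b-5p was higher by 4.40 ± 0.55 (limma adjusted p = 1.02e-05), with means of 173 ± 11.1 in SCN and 13.1 ± 15.4 in LGN. MiR-7b-5p had the largest and miR-7a-5p the next largest of the 352 differences. With all probes summed, below 3 errors or not, miR-7a-5p came first with 4.27 and miR-7b-5p next with 3.94. With undetected arrays at 0.1 they ranked 19 and 20, behind miRNAs detected on at most 1 LGN array, and their own values did not change. A call here is an adjusted p under 0.05 with detection on 2 or more arrays of the higher tissue. Calls in favour of SCN were common, 115 miRNAs or 32.7% of those tested. Over the 203 miRNAs that all 6 arrays detected, the median difference was 0.51 as scaled and 0.04 without scaling, so about that much of any single difference depends on the scaling.

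Within lens groups the excess of SCN over LGN was not constant. MiR-7a-5p was 5.39-fold higher in SCN in the normal group, 40.1-fold in the 0 D group and 40.2-fold in the -30 D group. MiR-7b-5p was 5.46-fold, 41.4-fold and 41.7-fold higher. On the 0 D and -30 D LGN arrays the dimmer probe of each miRNA fell below 3 errors and left the sum. With the brighter probe alone the 0 D and -30 D excess was 36.5-fold and 36.8-fold for miR-7a-5p, and 25.3-fold and 25.7-fold for miR-7b-5p. The normal group kept the smallest excess by either reading, and the difference between the groups was not tested.

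**Figure D2:**
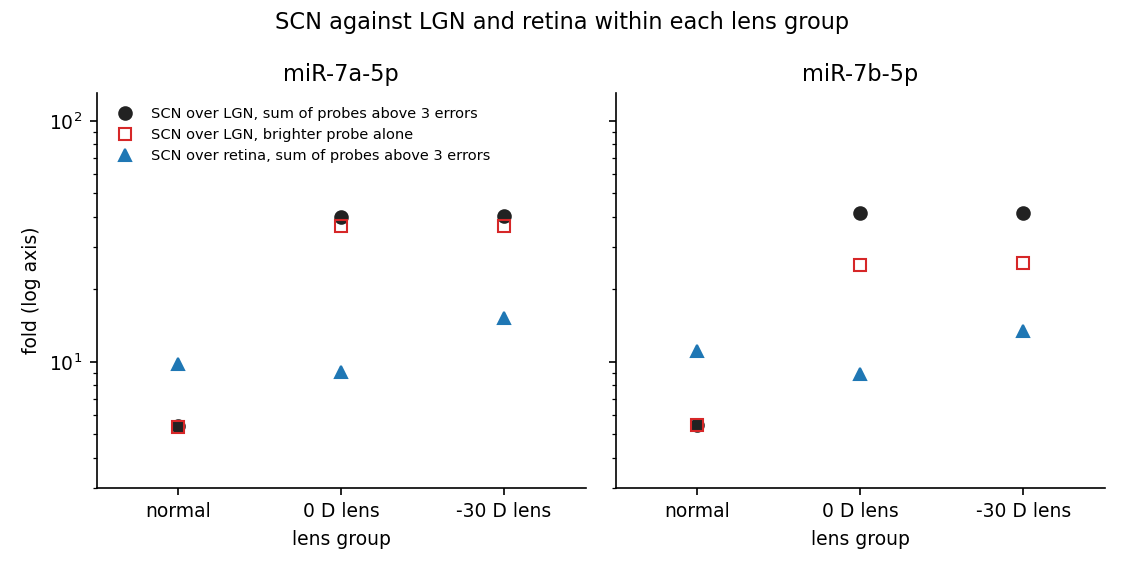
Fold (log axis) of SCN over LGN and of SCN over retina within each lens group, for miR-7a-5p (left) and miR-7b-5p (right), each point a ratio of 1 array to 1 array. For miR-7a-5p the fold over LGN is 5.39 in the normal group and about 40.1 in both lens groups, while the fold over retina stays between 9.07 and 15.2.

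Against the retina the SCN excess was steadier. MiR-7a-5p was 9.81-fold, 9.07-fold and 15.2-fold higher in SCN in the normal, 0 D and -30 D groups, a log2 difference of 3.47 ± 0.53 (limma adjusted p = 1.6e-05). MiR-7b-5p was 11.1-fold, 8.90-fold and 13.5-fold higher, a log2 difference of 3.46 ± 0.55 (limma adjusted p = 2.11e-05). Without scaling the mean excess was 7.12-fold and 7.08-fold. Both differences were well above the median of the 183 miRNAs that every SCN and retina array detected, 0.53 as scaled and -0.10 unscaled. In this comparison 40.1% of the miRNAs tested were called in favour of SCN.

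The remaining ocular tissues gave only bounds, since an undetected miRNA has no level, and the limma fit used the lowest detected signal of the array in its place. MiR-7a-5p was at least 32.6-fold higher in SCN than in cornea, at least 116-fold higher than in iris, at least 25.2-fold higher than in lens and at least 68.3-fold higher than in sclera. Over choroid, where 1 array detected it, the bound was 84.7-fold. For miR-7b-5p the bounds were 8.78-fold over cornea, 31.6-fold over iris, 6.80-fold over lens, 21.0-fold over choroid and 18.4-fold over sclera. The lower bounds over cornea and lens go with the higher detection limits of those arrays after scaling. Without it the 5 bounds lay between 59.9-fold and 78.3-fold for miR-7a-5p and between 16.1-fold and 21.1-fold for miR-7b-5p. All 10 differences were called, with limma adjusted p at or below 6.99e-07. These p-values set SCN against substitutes for undetected signals, except on 1 choroid array of miR-7a-5p. The share of miRNAs called in favour of SCN was 33% against cornea, 40.9% against iris, 37.8% against lens, 39.5% against choroid and 40.9% against sclera. Against the mean of the 6 ocular tissues both miR-7 forms were called (limma adjusted p = 3.21e-11 for miR-7a-5p and 1.56e-09 for miR-7b-5p), as were 40.3% of the miRNAs tested in that direction.

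Among ocular tissues the miR-7 forms were found in retina. MiR-7a-5p was at least 10.5-fold higher in retina than in iris, 7.65-fold than in choroid, 6.18-fold than in sclera, 2.95-fold than in cornea and 2.28-fold than in lens. MiR-7b-5p was at least 2.87-fold higher in retina than in iris, 1.91-fold than in choroid and 1.67-fold than in sclera, and its retinal signal was under the limits of the cornea and lens arrays, which gives no fold there. Without scaling the 5 bounds lay between 8.42-fold and 10.99-fold for miR-7a-5p and between 2.28-fold and 2.98-fold for miR-7b-5p, cornea and lens included. Against the mean of the other 5 ocular tissues, retina was higher for miR-7a-5p (limma adjusted p = 9.1e-08) and for miR-7b-5p (limma adjusted p = 0.000143), with undetected arrays at their lowest detected signal and 30.7% of miRNAs called in that direction. With undetected arrays at the 2-probe limit, the miR-7b-5p difference was 0.44 on the log2 scale and was no longer called (limma adjusted p = 0.261).

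The 2 miR-7 signals moved together over the 9 arrays that detected both. The quotient of miR-7a-5p over miR-7b-5p lay between 3.38 and 4.23 on these arrays, while miR-7a-5p ranged from 15.2 to 756 and miR-7b-5p from 3.96 to 185. The quotient also depends on the probes and is not a ratio of amounts. On the 0 D and -30 D LGN arrays both sums held the brighter probe alone, so their quotients do not compare with those of the other arrays. With all probes summed, these LGN arrays gave 16.9 and 20.5 for miR-7a-5p and 6.55 and 6.99 for miR-7b-5p. The range of the quotient therefore holds only for sums of probes above 3 errors. Whether part of the miR-7b-5p signal came from miR-7a-5p binding to its probes, given the single substitution between them, was not tested. No spot of these probes was saturated.

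**Figure D3:**
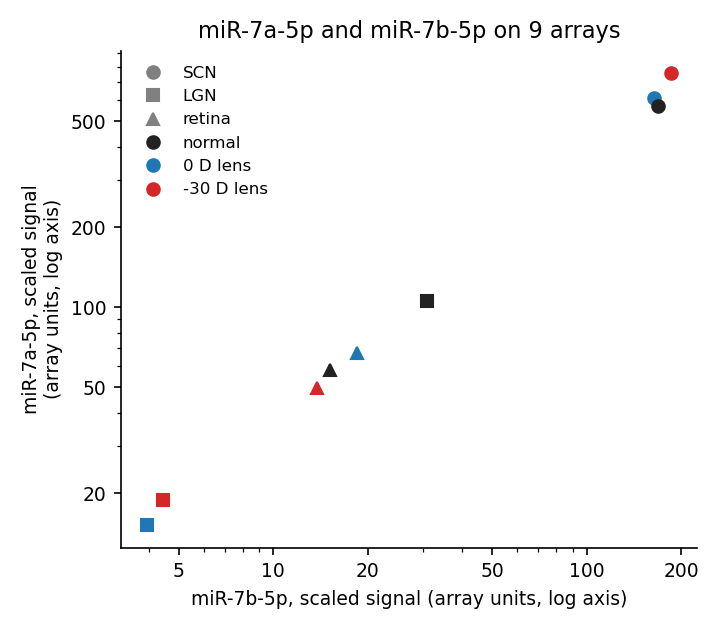
Scaled signal of miR-7a-5p against that of miR-7b-5p (array units, both axes log) on the 9 arrays that detected both. Symbols give the tissue and colours the lens group. The points follow 1 line from the 0 D and -30 D LGN arrays to the SCN arrays, with the normal LGN array above the retina. The 0 D and -30 D LGN points hold the brighter probe of each miRNA alone, and the other points hold both probes.

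The opposite arms of the miR-7a hairpins were detected on different sets of arrays. Which hairpin gave the 5p signal was not tested. MiR-7a-2-3p, the opposite arm of Mir7-2, was detected on the 3 SCN arrays and on no other, at 6.43, 8.08 and 8.56 in the normal, 0 D and -30 D groups. These signals were close to the detection limit, so the bounds were small, at least 1.21-fold over LGN and at least 1.32-fold over retina. Without scaling no bound exceeded 1. No test is given, since every LGN and retina value would be a substitute for an undetected signal. MiR-7a-1-3p, the opposite arm of Mir7-1, had another distribution. It gave 10.8, 13.8 and 8.16 in retina, 6.13, 6.14 and 6.65 in SCN, and 3.04 and 3.86 on the normal and 0 D LGN arrays, with none on the -30 D LGN array. Both of its probes exceeded 3 errors on 1 array only, so these signals mix sums of 1 and of 2 probes. Its retinal signals were above its SCN signals without overlap, yet the difference of -0.76 ± 0.34 on the log2 scale missed the threshold (limma adjusted p = 0.0617). Thus the 5p arm was about 11.1-fold higher in SCN than in retina, whereas the opposite arm of 1 of its hairpins was 1.69-fold higher in retina. MiR-7b-3p was detected on no array.

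**Figure D4:**
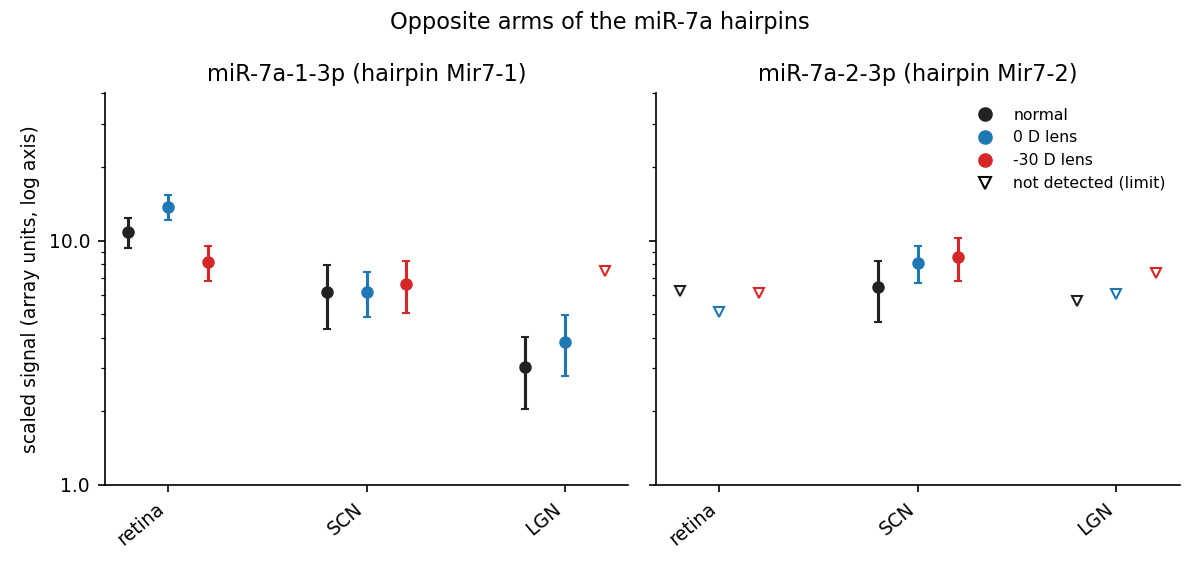
Scaled signal (array units, log axis) of the opposite arms of the 2 miR-7a hairpins in retina, SCN and LGN, 1 point per array with the array's own error, open triangles at the 2-probe limit where not detected. MiR-7a-1-3p is highest in retina, and miR-7a-2-3p is detected in SCN alone.

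MiR-671-5p is of interest beside miR-7 because miR-671 directs the cleavage of Cdr1as. In SCN it gave 4.44, 2.79 and 4.42 in the normal, 0 D and -30 D groups, in sclera 5.75, 11.4 and 10.66, and in choroid 3.99, 3.44 and 3.98. Retina gave 1.81 on the normal array alone, and LGN, cornea, iris and lens gave none. Its highest detected signals were in sclera, where miR-7 was not detected. The limits of the cornea arrays, 15.8 to 24.2, and of the lens arrays, 21.9 to 27.5, lay above every sclera signal. Sclera can therefore not be ranked against these tissues. On the normal slide the sclera signal lay beside the iris and LGN limits, 5.77 and 5.69. MiR-671-3p was detected on no array.

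MiR-375-3p did not follow miR-7 and was not most abundant in SCN. Its scaled signal in lens was 46.6, 46.2 and 43.9 in the normal, 0 D and -30 D groups, in retina 16.5, 19.96 and 14.9, and in SCN 5.91 and 6.999 in the normal and -30 D groups with none in the 0 D group. The 0 D retina signal alone summed both probes, and its brighter probe gave 16.6. The lens arrays lay above the retina arrays and these above the SCN arrays, without overlap. LGN, cornea, iris, choroid and sclera gave none on any of 15 arrays. The opposite arm, miR-375-5p, was detected on no array.

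The order of lens and retina depended on the scaling. Before scaling, miR-375-3p gave 17.8, 19.2 and 13.9 in lens and 24.6, 36.9 and 23.2 in retina, with retina higher on each slide. After scaling, lens was higher by 1.42 ± 0.43 on the log2 scale (limma adjusted p = 0.00525), and 21% of miRNAs were called in that direction. That difference was near the median of all 352 miRNAs tested, 1.40, and ranked 174. Undetected miRNAs entered at a floor of 6.18 to 9.61 on lens arrays and of 1.28 to 1.81 on retina arrays. When detection in lens was not required, 206 miRNAs were called in favour of lens. Without scaling the difference for miR-375-3p was -0.71 (limma adjusted p = 0.0824). Over the 105 miRNAs that every lens and retina array detected, the median difference was 0.48 as scaled and -1.66 unscaled, and miR-375-3p stood above that median under both. This contrast and that of lens against the other ocular tissues were added after the lens signal was seen. By the latter, lens was higher (limma adjusted p = 2.99e-08, 19.9% of miRNAs called in that direction), and its signal was at least 8.43-fold above iris, 5.62-fold above choroid, 4.91-fold above sclera and 2.34-fold above cornea. Without scaling these bounds were 1.97-fold, 1.54-fold, 1.99-fold and 1.52-fold. Calls in favour of lens over the other ocular tissues numbered 195 of 352 when detection in lens was not required. The miR-183 cluster, which was strong in retina, summed to 131 to 427 in lens against 14498 to 16170 in retina. Striated muscle miRNAs summed to 686 to 757 in lens, more than in any other tissue, with 153 to 330 in sclera next. The origin of the lens signal of miR-375-3p was not tested.

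**Figure D5:**
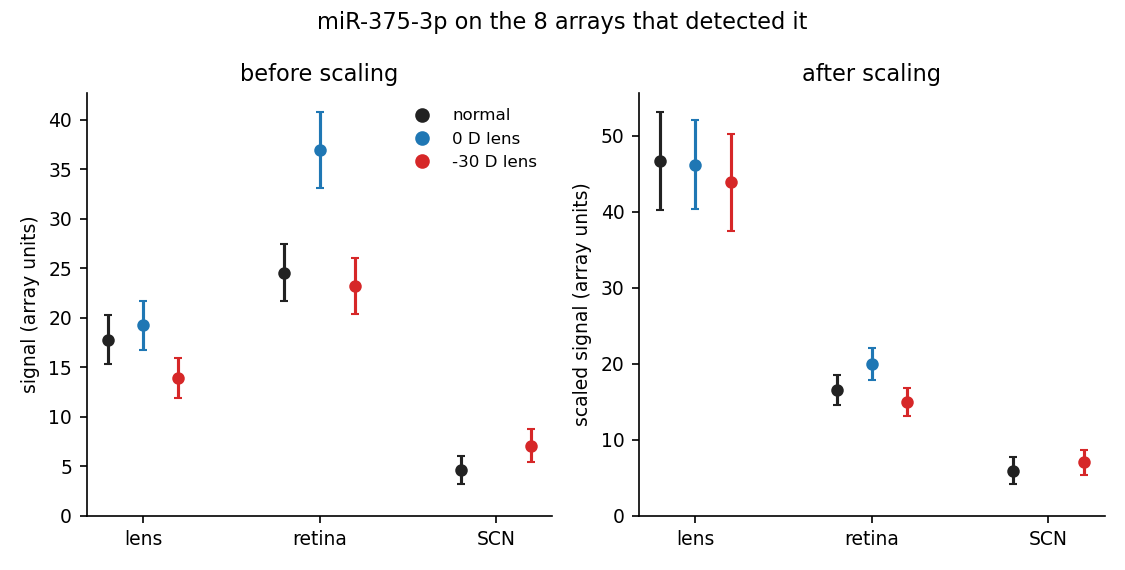
Signal of miR-375-3p in lens, retina and SCN before scaling (left) and after it (right), in array units, 1 point per array with the array's own error. Before scaling the retina points lie above the lens points, from 23.2 to 36.9 against 13.9 to 19.2. After it the lens points lie above, from 43.9 to 46.6 against 14.9 to 19.96.

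Compared with retina, SCN was lower in miR-375-3p, with a log2 difference of -2.05 ± 0.43 (limma adjusted p = 0.00042, the 0 D SCN array at its lowest detected signal), and 19.6% of miRNAs were called in favour of retina. The signal was at least 2.61-fold higher in retina than in SCN, and at least 4.06-fold without scaling. In lens it was at least 6.99-fold higher than in SCN (limma adjusted p = 8.1e-07, 22.2% of miRNAs called in favour of lens), or at least 2.47-fold without scaling. Between SCN and LGN the fit gave 1.34 ± 0.43 in favour of SCN (limma adjusted p = 0.019). This call rests on the value given to the undetected arrays, 1 in SCN and 3 in LGN. With these at their 2-probe limit it was 0.05 (limma adjusted p = 0.838), and the 2 SCN signals lay beside LGN limits of 5.64 to 7.35. Against the mean of the 6 ocular tissues, the difference of -0.56 on the log2 scale missed the threshold (limma adjusted p = 0.122). Neither its call nor its direction held over the alternatives, since SCN was called lower with undetected arrays at the 2-probe limit (-1.05, limma adjusted p = 4.9e-06), while the difference was 1.30 with them at 0.1, not called, and 0.18 without the 0 D slide. Against cornea, iris, choroid and sclera, SCN was near the limit and those tissues were undetected, so no fold is given.

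Lens wear was compared over the 8 tissues, with the tissue as a term. Where a member was undetected, the array entered at its lowest detected signal. MiR-7b-5p was detected in retina, SCN and LGN alone, and miR-7a-5p in these and on 1 choroid array. MiR-375-3p was detected in lens, in retina and on 2 SCN arrays. The comparison thus rested largely on substitutes and cannot decide whether lens wear changed a member. No member was called for -30 D against normal, for 0 D against normal or for -30 D against 0 D, with limma adjusted p from 0.939 to 0.99. Of all miRNAs tested, 0% were called in the first (15 had an unadjusted p under 0.05), 0% in the second (23 such) and 1.99% in the third.

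Within tissues the groups could be compared only as single arrays, by the fold limits of the study, applied here to scaled signals. These call a ratio over 2 or under 0.5 where both arrays detected the miRNA, and over 5 or under 0.2 where only 1 did. The undetected array was set to 0.1, a value that the methods of the study do not state. In LGN, miR-7a-5p met them as lower, with a log2 ratio to normal of -2.80 ± 0.22 (array error) in the 0 D group and of -2.49 ± 0.22 in the -30 D group. MiR-7b-5p met them with -2.96 ± 0.41 and -2.80 ± 0.44. With the brighter probe alone these ratios were -2.67, -2.36, -2.28 and -2.11. In LGN 6.8% of the miRNAs compared met the criteria as lower in the 0 D group and 11.3% in the -30 D group. In SCN and retina neither miR-7 form met the criteria, with log2 ratios to normal from -0.23 to 0.40, and up to 0.97 without scaling. The choroid signal of miR-7a-5p and the SCN signal of miR-375-3p met them only by being undetected on some arrays, at signals under their 2-probe limits. The paper lists miR-7a-5p among the downregulated miRNAs of its RPE/choroid sample under the -30 D lens. That call rests on the same arrays and is not a second measurement. In choroid the miR-183 cluster also summed highest on the normal array, 1436 against 1007 at 0 D and 813 at -30 D. A link between the 2 was not tested. MiR-375-3p did not meet the fold limits in lens or retina.

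The LGN change is 1 normal array against 2 others. The normal LGN array correlated with the SCN arrays at r of 0.955 to 0.970 over miRNAs, the other LGN arrays at 0.932 to 0.949, and its r with the other LGN arrays was 0.984 to 0.987. Among 214 miRNAs detected on all LGN arrays, miR-7b-5p and miR-7a-5p had the largest excess on the normal array, 2.88 and 2.65 on the log2 scale, followed by miR-376b-3p with 1.22. The order of the 2 miR-7 forms depended on the probes summed. With the brighter probe alone the 0 D and -30 D ratios to normal were -2.67 and -2.36 for miR-7a-5p, and -2.28 and -2.11 for miR-7b-5p. Of 53 other miRNAs that were at least 4-fold higher in SCN than in retina on every slide, 32 were highest on the normal LGN array, with a median excess of 0.09. Of the other 159 miRNAs, 20 were, with a median of -0.14. The part that the dissected region or the lens had in this was not tested. Without the normal LGN array, the SCN excess over LGN was 5.22 for miR-7a-5p and 5.41 for miR-7b-5p on the log2 scale. These values set both probes in SCN against the brighter probe alone in LGN. With the brighter probe in both, the excess was 5.19 (0 D) and 5.20 (-30 D) for miR-7a-5p, and 4.66 and 4.68 for miR-7b-5p.

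The miRNAs most like miR-7a-5p over the 24 arrays were found by Pearson's r of log2 scaled signals, given here as a description in which undetected arrays share the floor of their array. These were miR-3099-3p (r = 0.966), miR-7b-5p (0.964), miR-598-3p (0.945), miR-487b-3p (0.938) and miR-153-3p (0.938), the last a neuronal miRNA. MiR-3099-3p gave 159 to 226 in SCN, 26.0 to 57.9 in LGN and 43.9 to 59.7 in retina. MiR-7b-5p was most like miR-7a-5p, miR-495-3p (0.942), miR-873a-5p (0.929), miR-296-5p (0.916) and miR-370-3p (0.899). MiR-495-3p, miR-487b-3p and miR-370-3p belong to the imprinted Dlk1-Dio3 miRNA cluster, which is active in neurons. For miR-375-3p the highest were miR-194-5p (0.866), miR-19a-3p (0.863), miR-3078-3p (0.853), miR-3535 (0.852) and miR-677-3p (0.841). Of these, miR-19a-3p was detected on all lens arrays, at 25.7 to 31.3, and on all retina arrays, at 3.52 to 5.62. MiR-194-5p, miR-3078-3p and miR-3535 were detected on the 3 retina arrays alone, so that their likeness in lens comes from the floor of the scaled lens arrays.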

How the data were processed

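Total RNA of 8 tissues in 3 lens groups was labelled with Cy3 and hybridised by the authors, 1 array per tissue and group, and the scanner intensity files were deposited as Agilent Feature Extraction (version 10.7.1.1 in the submitters' processing notes) wrote them, with background-subtracted probe signals and errors. Those intensities were used. A deposited table of processed values, whose 24 value columns could not be assigned to groups from the labels, was not used. Probe signals above 3 errors were summed per miRNA (both probes, or 1). They were scaled to a common 75th percentile. For the fit, undetected values were set to the array's lowest detected signal. Log2 values of the 352 miRNAs detected on at least 3 arrays were fitted with limma 3.58.1 (R 4.3.3), with tissue and lens group as terms, 14 residual degrees of freedom and Benjamini-Hochberg adjustment per contrast. The precision is limited by 1 array per tissue and lens group. A bound on a fold sets a detected mean against the mean of the limits of the undetected arrays, each the higher of the lowest detected signal and both probes at 3 errors. Bounds without scaling were added after seeing the data. The members, marker lists and tests were chosen with earlier results of these data known. Named miRNAs were the members, the opposite arms of their hairpins, miR-671 and, for each member, the 5 miRNAs with the highest Pearson correlation with it. MiR-376b-3p was named after its value was seen. The fit was tested on simulated data. Alternatives varied the scaling, undetected values, filter, background correction, probe summary, block and arrays. Sequences were read from RefSeq GRCm38.p6. RNA quality was not analysed here.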

Additional observations from a re-analysis of the deposited data

Results flagged for a closer look

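The ratios of miR-7a-5p to the normal array had opposite signs in SCN and LGN. In SCN the log2 ratios were 0.09 ± 0.19 (array error) in the 0 D group and 0.40 ± 0.19 in the -30 D group, with a mean of 0.25, and neither met the fold limits. In LGN both lens-wearing arrays met them as lower, with a mean of -2.65. The 2 means differ by 2.90 on the log2 scale. With 1 array per tissue and lens group the difference was not tested, and the LGN part of it rests on 1 normal array.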

How the results depend on the processing

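Of 25 log2 differences of the members between tissues, 17 kept their direction and their side of the threshold under each of 13 alternatives. For miR-7a-5p and miR-7b-5p this held for 15 of 18.

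The per-miRNA totals printed in the scanner files changed the most calls. By their construction, described under the other observations, they carry signal from other miRNAs on some arrays. With them, SCN against LGN gave 1.69 for miR-7a-5p and 0.38 for miR-7b-5p, neither called. The LGN log2 ratios to normal turned to 1.40 (-30 D) and 1.32 (0 D) for miR-7a-5p and to 3.20 and 3.11 for miR-7b-5p. MiR-375-3p gave -0.34 for SCN against retina, 1.69 against the ocular mean, -1.84 against lens, and 1.497 for lens against retina, none called.

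For miR-375-3p, SCN against LGN lost its call without scaling (0.86), at the 2-probe limit (0.049) and without the normal LGN array (1.31, an alternative chosen after seeing the data), and ranged from 1.04 to 1.91 with 1 slide left out, called only without the 0 D slide. SCN against the ocular mean, not called in the report, was called with quantile normalization (-0.71), all probes summed (-0.70), the 2-probe limit (-1.05) and normexp (-0.10). It turned to 1.30 with undetected values at 0.1, and ranged from -0.97 to 0.18 with 1 slide left out. Lens against retina was -0.71 without scaling, 1.42 but not called with undetected values at 0.1, and from 1.35 to 1.53 with 1 slide left out, where the call was lost without the normal slide. Retina against other ocular tissues for miR-7b-5p was 0.44 at the 2-probe limit, not called. The causes were not tested.

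The LGN ratio to normal of miR-7a-5p at 0 D was -2.50 without scaling. For miR-7b-5p the -30 D ratio was -2.31 with quantile normalization, -2.15 with all probes summed and -2.11 with the brighter probe alone, and the 0 D ratio was -2.39, -2.24 and -2.28. The last 2 readings were chosen after seeing the data.

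MiRNAs called in favour of SCN over LGN numbered 115 as reported, 59 without scaling, 58 with the printed totals, 66 without the normal slide and 59 with detection on at least 12 arrays. That filter removes all members, so it gave no value for them, and left 80 over retina (141 as reported) and 80 over the ocular mean (142). Without scaling, retina over SCN gave 105 (69 as reported), retina over the other ocular tissues 163 (108) and lens over retina 39 (74). For 0 D against normal, 0 as reported became at most 3, and the 7 calls of -30 D against 0 D fell to between 0 and 2 under most alternatives. No member was among them under any alternative run.

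Scaling on the 75th percentile of all miRNAs was not run, since it was below 0 on an array, nor was the deposited table. No paired analysis was possible because each replicate number is the lens group itself, which the fit already holds as a term. Array number limits the precision, and signals of miR-375-3p in SCN and of the opposite arms lay near background.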

Other observations

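Besides probe signals, the scanner files print a total per miRNA, and for the members it was not a sum of their own probes on every array. Over all miRNAs and arrays, 5043 signals were detected. In all 2990 cases where every probe exceeded 3 errors, the printed total equalled the sum of the probes within 0.1%. In 2053 cases a probe did not exceed 3 errors, and in 1829 of these the printed total was larger. In all 1829 it equalled, within 1%, the sum of the probes above 3 errors plus the printed total of the miRNA detected before it in the alphabetical list. Of 27 detected member signals, 12 were affected. Before scaling, miR-7a-5p on the 0 D LGN array had probes summing to 25.1 and a printed total of 436, and miR-7b-5p, next in the list, had 6.56 and 443. On the -30 D LGN array the sums were 25.9 and 6.13 and the printed totals 385 and 391. MiR-375-3p in SCN was printed as 68.5 in place of 4.62 in the normal group and as 92.9 in place of 7.08 in the -30 D group. No SCN or retina signal of miR-7a-5p or miR-7b-5p was affected. After scaling, the printed totals stood at 264 and 279 for miR-7a-5p on the 0 D and -30 D LGN arrays, and at 87.7 and 91.8 for miR-375-3p on the normal and -30 D SCN arrays.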
